A study of Mus musculus with 21 samples.

Results

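The regions described here are distal H3K4me1 regions of mouse embryonic stem cells. In the formative state they were at least 2-fold lower in cells with catalytically dead MLL3 and MLL4 than in wild type. In cells that lack both proteins they were no more than 0.25 (log2) lower than in the line those cells are set against. They were selected on measured levels, out of 186824 H3K4me1 regions. A region had to lie in an intron or between genes, over 1 kb and at most 100 kb from the nearest transcription start site and off chromosomes 8, 14, 17, X and Y, with wild-type levels that differed by less than 1 (log2) between the naive and formative states. These conditions left 90600 eligible regions. Of those, 1579 had a formative level at least 1 (log2) below wild type in the catalytic-dead line (dCD) and a formative double-knockout (DKO) level no more than 0.25 (log2) below its floxed control, which is 1.74% of the eligible regions. The members were chosen by 3 measured contrasts, formative dCD against WT, formative DKO against the floxed line and formative against naive WT, and these are descriptions of how the regions were chosen and support nothing further.

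The mark was profiled by CUT&RUN, in which an antibody guides a protein A-MNase fusion that cuts out the chromatin around its target. Naive cells were compared with formative cells, collected 63 h after LIF and 2i were withdrawn. The 4 genotypes were wild type (WT), MLL3CD_MLL4CD (catalytic-dead alleles of both enzymes, here dCD), MLL3KO_MLL4fl (no MLL3, floxed MLL4, here the floxed line) and MLL3KO_MLL4KO (neither protein, here DKO). The floxed line and DKO thus both lack MLL3, and only WT and dCD have both proteins. The labels give R1 as the line of origin for WT and dCD and no line name for the floxed line and DKO, so line of origin and genotype cannot be told apart in any comparison of floxed or DKO cells with WT or dCD cells. Each group had 2 independently cultured and prepared H3K4me1 libraries, but the deposited table has a single pooled level for each group. The spread between the libraries of a group is therefore unknown, and every difference between lines is given by its size, with no test. The sample fields and the protocol of the labels name the H3K4me1 antibody by catalogue numbers that do not match, and the number in the protocol is known as that of an antibody to H3K27ac. Which antibody gave these libraries could not be settled here, so every H3K4me1 value below is H3K4me1 as labelled. As a check of the states, RNA of the formative marker Fgf5 was higher by 6.09 (log2) in formative than in naive WT in the authors' deposited table, and that of the naive markers Tfcp2l1 and Zfp42 was lower, at −2.86 and −2.78. The IgG and MLL4 libraries were not analysed here.

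H3K4me1 is the monomethyl mark of lysine 4 on histone H3 and is found at primed and active enhancers and on the flanks of promoters. MLL3 (gene Kmt2c) and MLL4 (gene Kmt2d) are large SET-domain proteins that deposit much of it at enhancers as the catalytic subunits of COMPASS-like complexes. A catalytic-dead allele keeps the protein and its partners but not the methyltransferase activity, whereas a knockout removes the protein as well. The formative state is the short-lived stage between naive pluripotency and the onset of lineage choice.

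The central 300 bp of 5 of the regions, chosen by rank, are printed as examples. The first 3 had the lowest formative dCD level against WT among regions read at least as deeply as the median region of the set, and the other 2 had the highest naive DKO level against the floxed line under the same read minimum. Each is the plus strand of the mm10 (GRCm38) reference assembly, and capitals mark matches on either strand to any of 21 short motif strings.
Samd9l intronic region, chr6:3384391-3384690: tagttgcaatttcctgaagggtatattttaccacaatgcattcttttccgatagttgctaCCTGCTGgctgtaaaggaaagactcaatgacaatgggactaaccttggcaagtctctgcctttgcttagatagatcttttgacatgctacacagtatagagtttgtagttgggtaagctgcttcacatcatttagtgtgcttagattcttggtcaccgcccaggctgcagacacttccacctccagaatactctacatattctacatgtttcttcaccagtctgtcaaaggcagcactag
Samd9l intergenic region, chr6:3425491-3425790: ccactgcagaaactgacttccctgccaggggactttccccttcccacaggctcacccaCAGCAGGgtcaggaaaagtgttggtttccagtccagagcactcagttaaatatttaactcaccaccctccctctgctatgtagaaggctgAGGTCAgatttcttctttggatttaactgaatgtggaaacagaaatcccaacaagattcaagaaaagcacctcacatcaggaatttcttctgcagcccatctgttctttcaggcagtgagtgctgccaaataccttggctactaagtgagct
Pon2 intergenic region, chr6:5332677-5332976: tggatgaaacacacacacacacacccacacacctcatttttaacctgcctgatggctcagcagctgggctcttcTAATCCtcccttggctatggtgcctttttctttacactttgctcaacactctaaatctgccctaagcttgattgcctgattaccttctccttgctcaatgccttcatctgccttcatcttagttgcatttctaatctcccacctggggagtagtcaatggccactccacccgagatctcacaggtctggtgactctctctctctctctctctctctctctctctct
S1pr3 intergenic region, chr13:51328486-51328785: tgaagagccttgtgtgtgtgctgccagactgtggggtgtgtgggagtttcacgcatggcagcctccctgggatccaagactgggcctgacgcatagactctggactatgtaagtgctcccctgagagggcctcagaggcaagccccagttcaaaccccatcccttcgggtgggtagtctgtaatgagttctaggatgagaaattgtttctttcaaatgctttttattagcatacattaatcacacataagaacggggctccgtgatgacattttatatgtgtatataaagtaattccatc
Rassf6 intergenic region, chr5:90650671-90650970: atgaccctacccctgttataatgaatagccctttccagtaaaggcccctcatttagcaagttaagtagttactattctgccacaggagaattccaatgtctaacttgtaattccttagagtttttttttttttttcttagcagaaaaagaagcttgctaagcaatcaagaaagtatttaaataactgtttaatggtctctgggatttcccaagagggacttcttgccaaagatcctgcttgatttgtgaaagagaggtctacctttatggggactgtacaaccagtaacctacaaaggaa
In the intronic Samd9l sequence the capitals are the reverse complement of CAGCAGG, a ZIC factor string. The intergenic Samd9l sequence holds CAGCAGG itself and AGGTCA, a core string of nuclear receptor binding, which is also contained in the longer ESRRB string. The Pon2 sequence holds TAATCC, an OTX2 string, and the S1pr3 and Rassf6 sequences hold none of the strings. CAGCAGG stood in the central 300 bp of 11.2% of the 1579 regions and 11.0% of the eligible regions long enough to be searched, TAATCC in 11.8% and 11.6%, and AGGTCA in 19.1% and 19.8%. These strings were therefore about as common in the set as among eligible regions in general, and a match is a description of letters, not of binding.

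The regions held few reads and were narrow. Normalized reads per region, recovered from the deposited levels, had a median of 26.9 in formative WT, 17.8 in the floxed line, 19.6 in DKO and 11.2 in dCD. All eligible regions had medians of 42.2, 40.0, 36.3 and 34.6 in the same order. In formative WT the set ran from 8.58 to 552.8 normalized reads, with quartiles at 19.4 and 42.5, and 60.2% of it lay under 32 reads against 37.3% of eligible regions. The factor between normalized and sequenced reads is not given in the sources used here, so no counting interval can be attached to these values. Per kb of region, the set was not below eligible regions in formative WT: median normalized reads per kb were 21.0 in WT, 13.3 in the floxed line, 14.5 in DKO and 8.54 in dCD, against 20.5, 19.3, 16.8 and 15.9 over eligible regions. The deposited level, which divides by the square of the width, had a median of 6.22 in formative WT for the set and 5.56 for eligible regions.

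As references, a pair of neighbouring classes was used. A total of 6311 eligible regions were at least 2-fold lower in both formative mutants, each against its own control, and 484 met the mirrored rule, lower in DKO against the floxed line and not in dCD against WT. The class lower in dCD alone was thus larger than its mirror as deposited. That order reversed with the scaling: after subtraction of each group's median the counts were 576 and 888, and with quantile scaling 583 and 701. The differences between group medians over all regions, which centring removes, were −0.40 for formative dCD against WT and −0.21 for formative DKO against the floxed line. The set made up 12.2% of the 12950 eligible regions that were at least 2-fold lower in formative dCD. Over all regions, 20.1% were at least 2-fold lower in formative dCD against WT and 16.7% in formative DKO against the floxed line, and over eligible regions 14.3% and 12%.

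Among regions with at least the median 26.9 formative WT reads, the lowest values lay near Samd9l, an interferon-inducible antiviral gene. Its intronic region (chr6:3383989-3385091) had 41.3 normalized reads in formative WT, 21.8 in the floxed line, 21.6 in DKO and 6.03 in dCD, a dCD level 2.73 (log2) below WT. In naive cells the same region had 27.2 reads in WT, 44.3 in the floxed line, 19.8 in DKO and 9.13 in dCD. dCD was the lowest of the 4 lines in both states there, and DKO was also below the floxed line in naive cells. An intergenic region 26.1 kb from the Samd9l start site (chr6:3424425-3426855) had 89.0 formative reads in WT, 30.0 in the floxed line, 32.6 in DKO and 12.5 in dCD. Its naive reads were 61.8, 54.3, 30.2 and 15.2 in that order, so the floxed line stood near WT in the naive state and near DKO in the formative state.

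Near Pon2, a paraoxonase gene, the floxed line and DKO were lower still than dCD. The intergenic region (chr6:5332055-5333597) had 62.5 formative reads in WT, 4.24 in the floxed line, 7.53 in DKO and 10.1 in dCD. Naive reads were 46.3, 2.98, 1.91 and 11.9. It met the rule because DKO was not below a floxed line that itself lay 3.74 (log2) under WT, not because DKO held a wild-type level. In the formative state the region in the intron of Rngtt, the mRNA capping enzyme gene (chr4:33374735-33375907, nearest start site Mir8118), differed from it: 27.1 reads in WT, 19.6 in the floxed line, 18.4 in DKO and 4.39 in dCD. The region 68.8 kb from Adrb1, a beta-adrenergic receptor gene (chr19:56652544-56654047), likewise had 32.4, 21.5, 19.1 and 6.86 reads. The lowest regions thus held both kinds, those where DKO stood well above dCD and those already low in the floxed line.

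The other 3 regions of the lowest 8 under this read minimum resembled the Samd9l intergenic region more than the Adrb1 region. Near 1700057H21Rik (chr2:51448022-51449640) formative reads were 37.2 in WT, 11.9 in the floxed line, 12.1 in DKO and 8.54 in dCD. In an intron of Rnf41, which encodes an E3 ubiquitin ligase (chr10:128426225-128427897), they were 58.7, 16.3, 21.0 and 14.9. Beside E330012B07Rik (chr6:147176115-147180728), the most deeply read of the 8, they were 212.0, 83.8, 77.5 and 52.5. In each of these 3 the floxed line and DKO lay between WT and dCD and closer to dCD.

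Regions at the edges of the rule were alike on both sides. Just inside the dCD limit, the region near Prxl2c went from 24.2 formative reads in WT to 12.0 in dCD, and just outside it the region near Ncam1 went from 28.7 to 14.02, both 2-fold differences after rounding. The Stxbp3 region inside had 16.6 and 8.18 reads, and the Abtb2 region outside 11.3 and 5.51. At the DKO limit, the Atp6v0a4 and Dcbld1 regions inside and the Jazf1 and Zc3h15 regions outside all had a DKO difference of −0.25. At the limit on the wild-type change between states, the Lypd6 and Ufl1 regions lay inside, and the Osbpl10 and Myo5b regions outside.

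The floxed line was itself lower than WT over most of the set in formative cells. Its median difference from WT was −0.57 against −0.07 over eligible regions, and it was below WT by any size in 93.4% of the set against 58.8% of eligible regions. Decreases of at least 2-fold were seen in 306 regions, 19.4% of the set, where the background over all regions was 3.83% and over eligible regions 2.73%. With the smaller limit of 1.5-fold, 760 regions or 48.1% were lower, beside a background of 13% of all regions and 10.7% of eligible regions. This contrast shares its libraries with the rule, so the counts describe which regions the rule took. Where DKO was instead required to be no more than 0.25 below WT, the median of the 622 regions then taken was −0.033, above the −0.07 of eligible regions. In the 6311 regions lower in both mutants the median of the same contrast was 0.00, and in the mirrored class it was 0.40.

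Set directly against WT, formative DKO was lower over the set by a median of 0.48, beyond the −0.22 of eligible regions. Levels at least 2-fold below WT were seen in 13.0% of the set, close to the 13.6% of eligible regions and below the background of 20.2% over all regions. WT was the highest of the 4 formative lines in 1356 regions (85.9%), dCD the lowest in 1418 (89.8%), the floxed line the lowest in 124 and DKO the lowest in 37, where the shares over eligible regions were 34.6%, 34.1%, 24.8% and 28.2%. DKO was above dCD by a median of 0.75, where eligible regions had 0.05, and by at least 2-fold in 29.5% of the set, beside a background of 2.35% over all regions and 1.94% over eligible regions. The rule selected on these formative levels, so the order of the lines and the excess of DKO over dCD are largely set by it and describe the choice of regions.

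**Figure D1:**
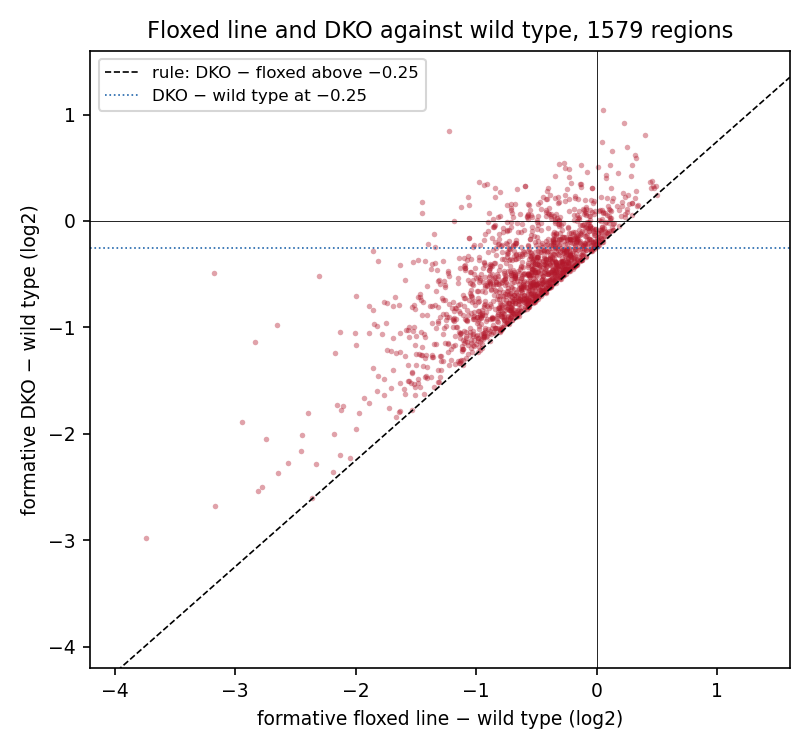
Each point is 1 of the 1579 regions, with the formative floxed line minus WT on the x axis and formative DKO minus WT on the y axis, both as log2 differences; the dashed line is the limit of the rule and the dotted line marks DKO at 0.25 below WT. Most points lie to the left of 0, and 436 lie above the dotted line.

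The set was split by the formative floxed line's level at 1.5-fold below WT (−0.585 in log2). That limit lies near the set's own median of −0.568, so the split cuts a continuous spread. In the 760 regions where the floxed line was at least 1.5-fold below WT, median formative reads were 25.9 in WT, 12.9 in the floxed line, 15.9 in DKO and 10.4 in dCD, and DKO lay 0.78 (log2) below WT. In the other 819 the medians were 27.5, 22.9, 23.1 and 11.8, and DKO lay 0.29 below WT. The groups also differed in the naive floxed line, whose libraries the rule did not use. Its reference, naive WT, does enter the rule, and formative WT lay above naive WT by medians of 0.26 and 0.04. The naive floxed line was below naive WT by a median of 0.35 in the first group and 0.05 in the second. The share at least 2-fold lower was 13.4% and 4.64% of the 2 groups. The naive contrast over the whole set had a median of −0.21 and 8.87% of regions at least 2-fold lower, beside a background of 4.38% over all regions and 3.03% over eligible regions. The naive difference of dCD from WT, in contrast, was of similar size in both groups, −0.60 and −0.51.

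A subset of 436 regions (27.6%) also had a formative DKO level no more than 0.25 below WT. Their median formative reads were 23.1 in WT, 19.4 in the floxed line, 22.7 in DKO and 9.42 in dCD. The 2 limits together fix DKO above dCD in each of them. In naive cells the same regions had median reads of 23.1 in WT, 23.0 in the floxed line, 21.9 in DKO and 17.6 in dCD, with dCD 0.44 below WT and DKO 0.14 below the floxed line.

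In naive cells, dCD was again below WT. The median difference was −0.55 in the set and −0.29 over eligible regions, and dCD was below WT by any size in 86.3% and 69.3%. It was at least 2-fold lower in 341 regions, 21.6%, where the background was 13.9% over all regions and 10.8% over eligible regions, and at least 2-fold higher in 1 region, where the background was 1.55% over all regions and 0.606% over eligible regions. Naive WT also enters the rule, by the limit on the wild-type change between states. Naive DKO, against the floxed line, had a median of −0.22 in the set and −0.18 over eligible regions. It was at least 2-fold lower in 209 regions, 13.2%, where the background was 15.9% over all regions and 13.6% over eligible regions, so this share was near the background. That likeness held as deposited and depended on the scaling: after subtraction of group medians the naive DKO median was −0.205 for the regions then taken against 0.025 for eligible regions, and with quantile scaling −0.259 against 0.04. The naive dCD medians were −0.408 against 0.066 and −0.532 against 0.035 in the same settings. As deposited, the median lay further below that of eligible regions in the naive dCD contrast than in the naive DKO contrast, whose libraries did not enter the rule.

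Counted by region, 232 regions were at least 2-fold lower in naive dCD only, 100 in naive DKO only, 109 in both and 1138 in neither, or 14.7%, 6.33%, 6.90% and 72.1% of the set. Over eligible regions the shares were 4.75%, 7.5%, 6.07% and 81.7%, and over all regions 6.07%, 8.05%, 7.86% and 78%. Both limits of the formative rule, applied to naive cells, were met by 95 regions, or 6.02% of the set, beside a background of 1.63% over all regions and 1.13% over eligible regions. The mirrored pattern was met by 7 regions, 0.443%, against 0.758% of eligible regions and a background of 1.22% over all regions. Naive dCD was the lowest of the 4 naive lines in 698 regions, 44.2%, against 32.6% of eligible regions. The difference between the naive dCD effect and the naive DKO effect had a median of −0.34 in the set, −0.05 over eligible regions and 0.12 in the regions lower in both formative mutants. Both limits were thus met in naive cells by a small minority of the regions, at a higher share than among eligible regions. Naive WT, the reference of the dCD limit, also enters the rule through its limit against formative WT. It was the highest of the 4 naive lines in 48.5% of the set and 31.3% of eligible regions. How much of the higher share comes from that reference was not tested.

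**Figure D2:**
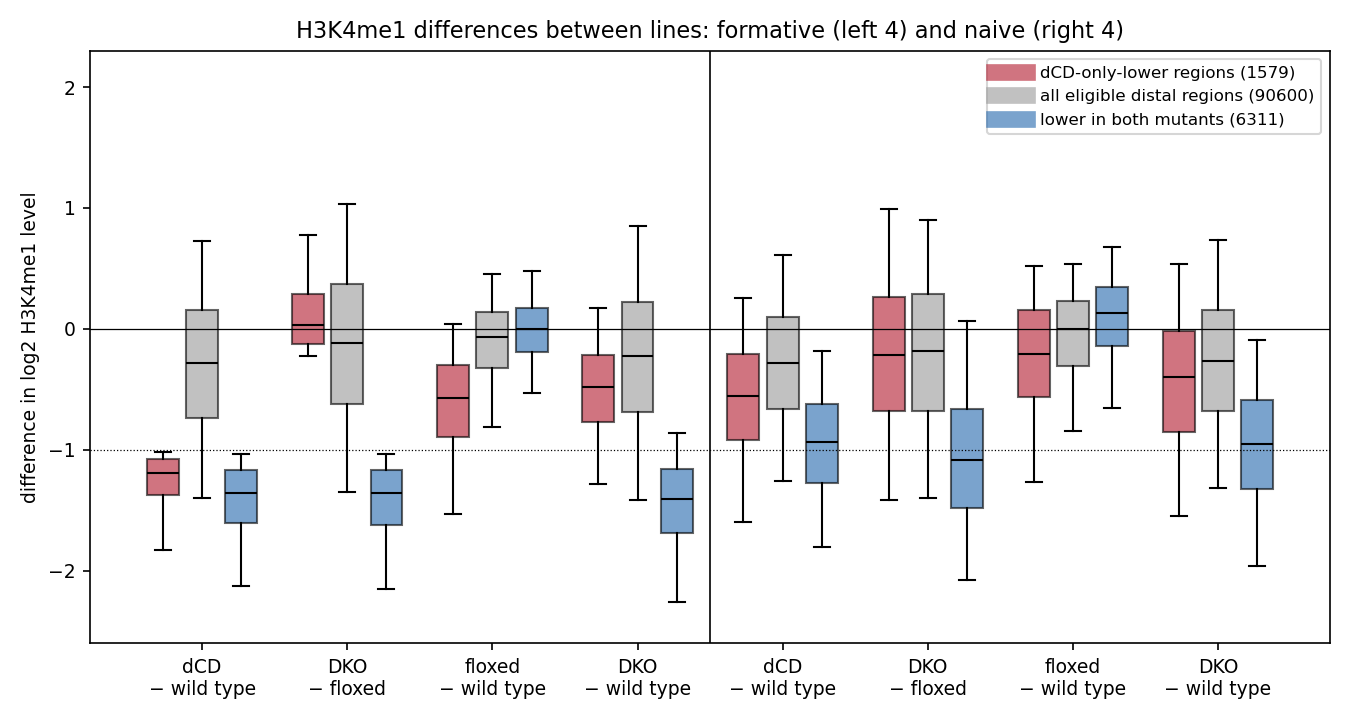
Boxes show medians and quartiles, and whiskers the 5th and 95th percentiles, of log2 H3K4me1 differences between lines, in formative (left) and naive (right) cells, for the 1579 regions, all 90600 eligible regions and the 6311 regions lower in both mutants; the dotted line marks a 2-fold decrease. The first 2 contrasts are fixed by the rule; in naive cells the set lies below eligible regions for dCD (−0.55 against −0.29) and near them for DKO against the floxed line (−0.22 against −0.18, as deposited; −0.205 against 0.025 after subtraction of group medians).

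Since the set held fewer reads per region, the naive contrasts were also read within classes of formative WT reads. For regions under 20 reads (431 in the set) the naive dCD median was −0.67 against −0.32 for eligible regions of the same class, and for 20 to 32 reads it was −0.52 against −0.26. For 32 to 64 reads it was −0.52 against −0.27, and for the 172 regions of 64 or more reads −0.53 against −0.30. The gap between the set and eligible regions was thus present in each of the 4 read classes. The naive DKO medians were −0.20 against −0.02 in the lowest class, −0.20 against −0.05 and −0.18 against −0.15 in the next, and −0.32 against −0.35 in the highest. Below 32 reads the set was therefore lower than eligible regions in naive DKO too, by less than in naive dCD. Among regions of at least 32 reads, both naive limits were met by 26 of 629 regions in the set (4.13%) and by 0.475% of eligible regions.

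**Figure D3:**
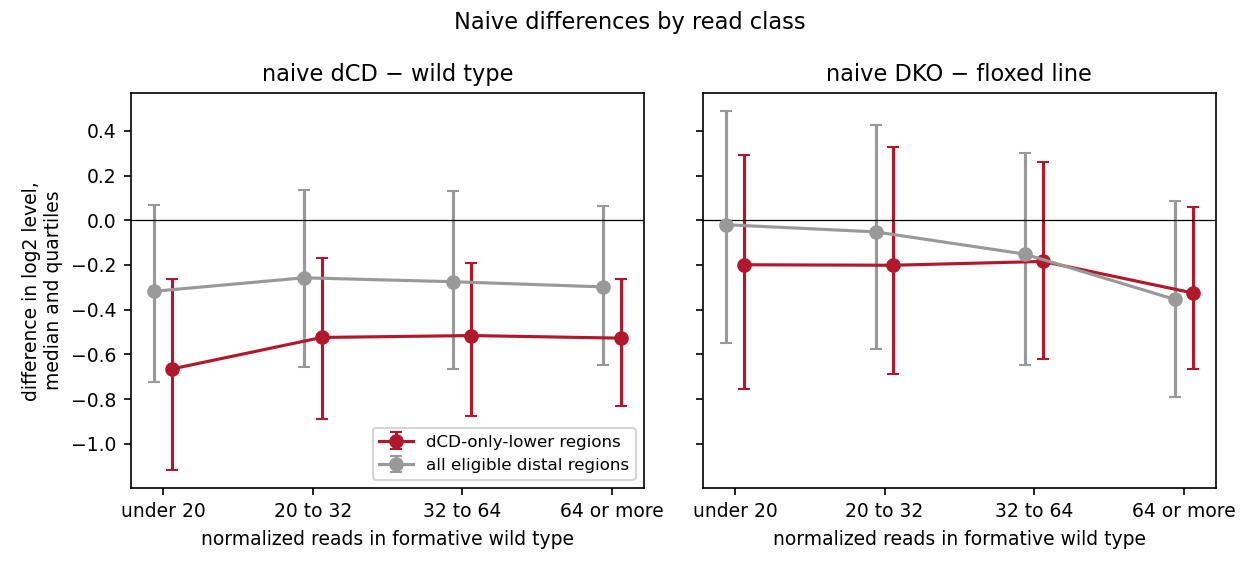
Medians (points) and quartiles (bars) of the naive differences, dCD minus WT at the left and DKO minus floxed line at the right, on a log2 scale, for 4 classes of normalized reads in formative WT, in the set and in all eligible regions. The 2 curves stay apart at the left in every class, from −0.67 against −0.32 to −0.53 against −0.30. At the right they lie close from 32 reads up, at −0.18 against −0.15 and then −0.32 against −0.35.

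Among regions above the read minimum, the 6 largest naive decreases in dCD lay near genes outside the gene lists. A repeat-rich region 99.2 kb from Sis, the sucrase-isomaltase gene (chr3:72867409-72869858, 80.9% repeat sequence), had 50.2 naive reads in WT, 52.6 in the floxed line, 13.8 in DKO and 9.41 in dCD. Both naive mutants were low there, by 2.28 and 1.84 (log2) against their controls, whereas in formative cells the floxed line was also low (89.6, 28.1, 30.5 and 24.1 reads). Near Vmn2r3, a vomeronasal receptor gene (chr3:64321514-64323240), naive reads were 38.5, 26.1, 20.3 and 7.79, and in an intron of Frmd4b, a FERM-domain gene (chr6:97600008-97603090), they were 76.5, 89.3, 50.7 and 15.6. Formative reads of the Frmd4b region were 40.0 in WT, 32.5 in the floxed line, 35.8 in DKO and 17.7 in dCD, so there dCD stood apart from the other 3 lines in both states. The naive dCD differences near Olfr916 and Pira6 and in an intron of Ahcyl2 were −2.21, −2.21 and −2.19.

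At the other end, some regions lower in formative dCD were higher in naive dCD. Near Ttc32 (chr12:9045747-9048457) naive reads were 30.5 in WT, 31.0 in the floxed line, 29.2 in DKO and 57.0 in dCD, and formative reads were 47.6, 29.4, 28.5 and 20.1. dCD was thus the highest line in the naive state and the lowest in the formative state. Near Ankrd31, a gene of meiotic recombination (chr13:96728050-96729650), naive reads were 29.1, 30.1, 44.7 and 45.3, with both mutants above their controls, while formative reads were 37.8, 35.6, 36.1 and 16.95. The regions in an intron of St6gal1, a sialyltransferase gene, and near Myrip were higher in naive dCD by 0.68 and 0.66.

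Naive DKO departed from the floxed line in both directions at single regions. Near S1pr3, a receptor gene for sphingosine-1-phosphate (chr13:51327943-51329328), naive reads were 26.1 in WT, 12.2 in the floxed line, 52.5 in DKO and 27.7 in dCD. Formative reads there were 31.1, 28.8, 32.5 and 13.2, so DKO was highest in both states. Near Rassf6, a Ras-association domain gene (chr5:90650226-90651414), naive reads were 19.2, 4.61, 15.8 and 17.6, where the floxed line alone was low. The regions near Tank and in an intron of Gm5134 were higher in naive DKO than in the floxed line by 1.62 and 1.54. The floxed line was the lowest naive line at both, and the naive DKO differences from WT were 1.05 and −0.32. In the other direction, the intronic region of Wipf2 (chr11:98874830-98876161) had 41.8 naive reads in WT, 63.7 in the floxed line, 14.1 in DKO and 23.2 in dCD, but 34.2, 30.2, 28.4 and 10.6 in formative cells. Lower in naive DKO than in the floxed line were also the intronic region of Fan1, a nuclease gene of crosslink repair, by 1.95, and the region near Wdr75, a ribosome biogenesis gene, by 1.91. Their naive DKO differences from WT were −1.05 and −1.51.

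Between the states, the lines moved differently over the set. WT levels were higher in formative than in naive cells by a median of 0.15, within the limit the rule sets. dCD levels were lower in formative cells by a median of 0.57, against 0.04 over eligible regions, and at least 2-fold lower in 281 regions, 17.8%, beside a background of 2.47% over all regions and 1.73% over eligible regions. The floxed line was lower by a median of 0.24 (eligible regions −0.11) and at least 2-fold lower in 14.1%, beside a background of 10.6% over all regions and 6.37% over eligible regions. DKO levels were higher by a median of 0.05 and at least 2-fold lower in 0.633%, beside a background of 1.25% over all regions and 0.855% over eligible regions. The formative libraries of these contrasts also enter the rule, so the values are descriptions. In the authors' deposited table, 1.90% of the set changed between naive and formative WT at an FDR under 0.05, against 7.51% of eligible regions and 20.3% of all regions. These shares were not matched for reads, which were under 32 in 60.2% of the set and 37.3% of eligible regions. All regions also carry no limit on the wild-type change.

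Regions near listed genes made up a share close to that of all eligible regions. Across 13 gene lists, 22 of 1700 eligible regions belonged to the set, 1.29%, beside the 1.74% of all eligible regions. The core pluripotency list had 5 of 150 (Dppa4, Mycn with 2 regions, Nanog and Sall4), the formative and primed list 4 of 200 (Etv5, Foxd3 with 2, and Lef1) and the naive list 2 of 228 (Gbx2 and Tet2). The WNT, FGF and TGF-beta signalling list had 4 of 276, Etv5, Lef1, Spry4 and Tgfbr1, and the H3K4 methylation list 1 of 63, Kmt2a. The primitive streak and mesoderm list had 3 of 119, the germ line list 2 of 80 and the chromatin list 2 of 199. Endoderm (90 regions), trophoblast (135) and feeder fibroblast (57) lists had 1 each, and the neural (193) and housekeeping (66) lists had 0. With so few regions per list, no list stands apart from the share of all eligible regions in a way that could be tested here.

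The region 12.0 kb from Nanog, a core pluripotency factor gene (chr6:122693698-122697281, intergenic), was among the most deeply read. It had 127.2 formative reads in WT, 123.2 in the floxed line, 104.5 in DKO and 62.1 in dCD. Naive reads were 149.7, 146.7, 83.3 and 88.0. Both mutants were lower in the naive state, by 0.75 and 0.80 against their controls, and in the formative state DKO lay closer to its control. Its formative dCD difference was 2-fold after rounding and its DKO difference −0.23, so it lay just inside both limits.

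Other pluripotency genes showed mixed patterns. At Gbx2, a naive pluripotency transcription factor gene (chr1:89908574-89910266), naive reads were 53.5 in WT, 54.9 in the floxed line, 21.7 in DKO and 26.3 in dCD, and formative reads 43.5, 36.1, 31.7 and 20.5. Both mutants were thus at least 2-fold lower in the naive state there. At Sall4, a zinc-finger pluripotency gene (chr2:168824398-168826189), naive reads were 29.6, 30.5, 39.9 and 14.8 and formative reads 50.5, 35.5, 33.1 and 20.9, with dCD lowest in both states and DKO highest in the naive one. At Tet2, which encodes a 5-methylcytosine dioxygenase (chr3:133556522-133559060), naive reads were 57.2, 45.1, 34.4 and 46.2 and formative reads 46.5, 36.5, 33.4 and 21.7. There DKO was the lowest naive line and dCD the lowest formative one. The Dppa4 region (chr16:48273997-48275005), near a gene of early embryonic chromatin, had 14.8 formative reads in WT and 6.98 in dCD.

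Foxd3, a forkhead gene of the exit from the naive state, had 2 regions with unlike naive levels. The one 24.3 kb away (chr4:99631732-99632200, 70.1% repeat sequence) had 15.7 formative reads in WT, 10.4 in the floxed line, 9.28 in DKO and 3.09 in dCD, and naive reads of 13.2, 15.2, 10.2 and 3.01. The one 27.7 kb away (chr4:99683252-99684728) had 21.95, 16.5, 23.9 and 10.05 formative reads and 26.3, 15.2, 26.1 and 27.9 naive reads. dCD was the lowest line in both states in the first and only in the formative state in the second. Mycn, a MYC family gene, also had a pair: formative reads of its more deeply read region (chr12:12865246-12868864) were 87.3, 64.7, 61.0 and 37.5, with 110.1, 108.8, 69.2 and 54.1 in naive cells.

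Among signalling genes, Lef1, an effector of WNT signalling (chr3:131070113-131071166), had 21.2 formative reads in WT, 14.7 in the floxed line, 14.2 in DKO and 6.71 in dCD. Tgfbr1, the type I receptor gene for TGF-beta (chr4:47342328-47343792), had 28.4, 22.9, 26.3 and 11.4, and its naive reads were 19.9, 9.09, 21.9 and 20.1, with only the floxed line low. Etv5, an ETS factor gene downstream of FGF (chr16:22368302-22369458), had 17.6, 7.20, 7.78 and 6.59 formative reads, so that all 3 mutant lines were low together. At Spry4, a feedback inhibitor gene of FGF signalling, formative reads were 22.1, 13.7, 15.6 and 9.06. The Kmt2a region, in an intron of the gene for the related methyltransferase MLL1 (chr9:44864786-44871847), was the most deeply read of the 14, with 236.9, 189.2, 161.0 and 113.3 formative reads and 190.7, 182.4, 133.3 and 139.1 naive reads.

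Counted together, these 14 regions from 12 genes had a floxed-line level below WT in 14 of 14 in formative cells, by at least 2-fold in 2 (Etv5 and the less deeply read Mycn region). The floxed line was below WT by any size in 93.4% of the whole set, 58.8% of eligible regions and 59.5% of all regions. For at least 2-fold the shares were 19.4%, 2.73% and 3.83%. Naive dCD was below WT in 12 of 14, by at least 2-fold at Foxd3 (−2.12) and Gbx2 (−1.01). The shares in the same order were 86.3%, 69.3% and 67.1% by any size, and 21.6%, 10.8% and 13.9% for at least 2-fold. Both counts were thus near the shares of the whole set. Naive DKO was at least 2-fold below the floxed line at Gbx2 and Spry4 and at least 2-fold above it at Tgfbr1, where the backgrounds over all regions are 15.9% and 4.36% (13.6% and 3.67% over eligible regions). Of the 14, 13 were intergenic and 8 had under 32 formative WT reads.

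**Figure D4:**
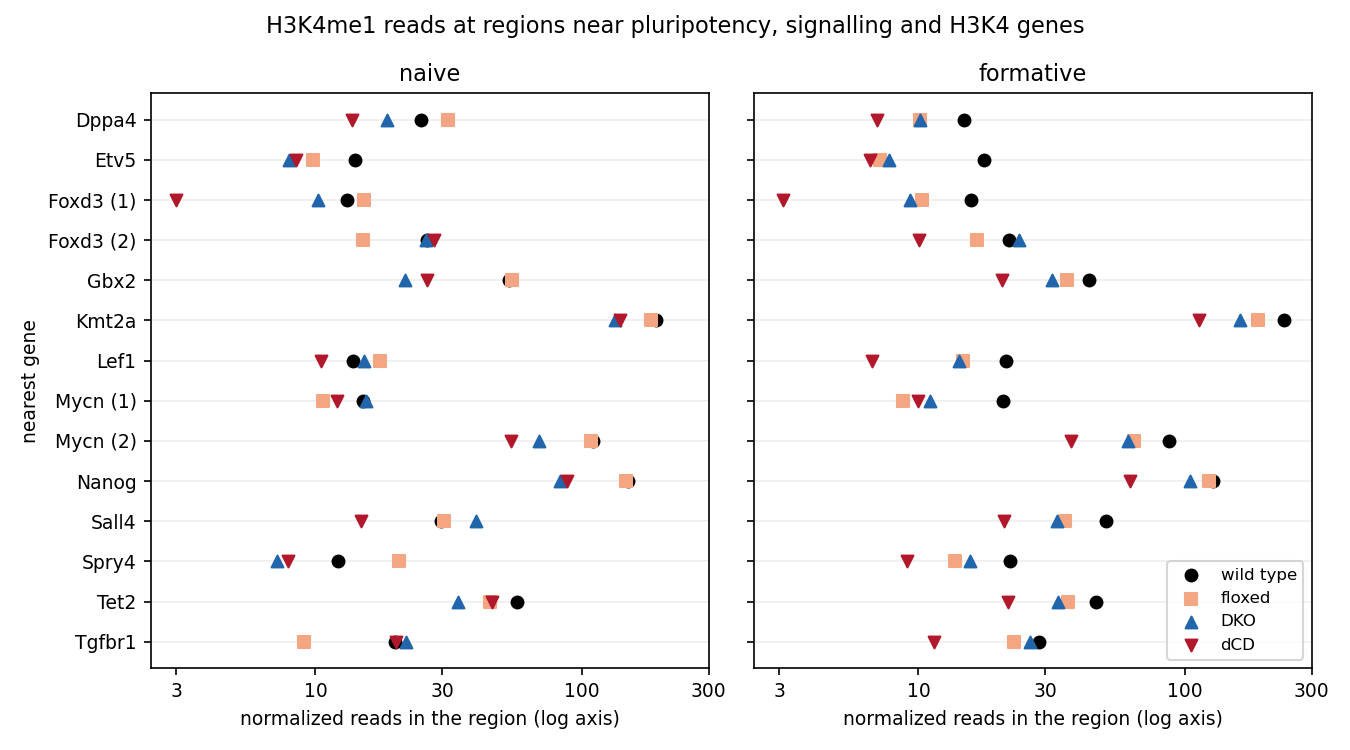
Normalized H3K4me1 reads (log axis) in naive (left) and formative (right) cells of the 4 lines, for the 14 regions whose nearest gene is in the pluripotency, signalling or H3K4 methylation lists; each symbol is 1 pooled group, and 2 regions of a gene are numbered. In the formative panel the dCD symbol lies at the left of the WT symbol in each row by the rule, while in the naive panel it lies at the right of WT at the second Foxd3 region and marginally at Tgfbr1.

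Most of the regions had no other of the set close by, in a set that held 1.74% of eligible regions. The set named 1389 distinct nearest genes, of which 1230 had a single region, and 80.8% of the regions had no other within 50 kb. No matching shares were counted for eligible regions. The nearest region was itself in the set for 3.10% of members, against 1.25% of eligible regions. The genes nearest to 4 or more regions of the set were Eps8 with 5, and Mybpc1 and Vps50 with 4 each. At Mybpc1, the gene of a skeletal-muscle myosin-binding protein, the 4 regions lay within 10.7 kb (chr10:88630206-88640938) and were the only eligible regions there. Their formative WT reads were 45.0, 13.9, 36.5 and 33.1 from left to right, and those of the floxed line 15.4, 6.48, 16.3 and 15.0. DKO reads were 34.6, 7.29, 15.2 and 14.2, and dCD reads 20.2, 5.16, 13.7 and 13.1. The floxed line was at least 2-fold below WT in each of the 4, and DKO stood above the floxed line by a clear margin (1.11) only in the first.

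At Vps50, which encodes a subunit of an endosomal recycling complex, 4 of the 9 eligible regions in 44.1 kb of its introns belonged to the set (chr6:3509870-3553965). The deepest had 178.9 formative reads in WT, 60.8 in the floxed line, 107.3 in DKO and 80.3 in dCD, and the floxed line was here below both mutants. In naive cells it had 107.8, 99.9, 89.8 and 86.0, a much narrower range. The stretch of chromosome 6 from the leading Samd9l region to the Pon2 region (chr6:3383989-5333597), chosen after its values were seen, held 10 of the set among 106 eligible regions, 9.43%, against 2.51% on chromosome 6 as a whole. Over the eligible regions of that stretch the formative floxed line lay at a median of −0.33 and dCD at −0.73 against WT. At Eps8, an actin-capping and signalling adaptor gene, the 5 regions had formative WT reads between 17.9 and 47.4, and dCD was the lowest formative line in each.

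By chromosome, the share of eligible regions in the set ran from 1.01% on chromosome 11 to 2.51% on chromosome 6, with chromosome 13 at 2.49%. On chromosome 6 the eligible regions as a whole were also lower in the floxed line (median −0.14) than the −0.07 of all eligible regions. The same median was −0.08 on chromosome 13 and −0.007 on chromosome 11. Chromosomes 3 and 18, with shares of 2.23% each, were at −0.06 and −0.08. A relation between the share and the floxed line was not tested. The region nearest to each member of the set had a formative dCD difference of −0.48, against −0.24 for the neighbours of eligible regions. Neighbours of the regions lower in both mutants were at −0.80. The formative DKO difference of the same neighbours was −0.19 for the set, −0.10 for eligible regions and −0.73 for the class lower in both. The nearest region was itself in the set for 49 members, 3.10%, against 1.25% of eligible regions. By median the neighbours were thus lower than those of eligible regions in both contrasts, and more so in dCD. Formative DKO was at least 2-fold lower in 13.4% of the set's neighbours and 13.3% of those of eligible regions (17.4% for all regions). For formative dCD the shares were 24.0%, 15.6% and 20.7%. The formative floxed line of the neighbours lay at −0.16 for the set and −0.05 for eligible regions, against WT.

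In form, the regions were narrower than eligible regions and lay farther from start sites. Median width was 1347 bp against 2087 bp over eligible regions and 2112 bp in the class lower in both mutants. The mirrored class, lower in DKO alone, had a similar width of 1397 bp and 71.3% of its regions under 32 reads. Median distance to the nearest start site was 26.6 kb against 19.1 kb, and 19.3% lay within 10 kb against 30.7%. Introns held 804 regions, 50.9%, against 54.6% of eligible regions. CpG dinucleotides numbered 1.04 per 100 bp, between the 1.21 of eligible regions and the 0.763 of the class lower in both, and GC content was 44.9% against 46.6%. Regions with at least 50% repeat sequence made up 9.18% against 5.50%.

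**Figure D5:**
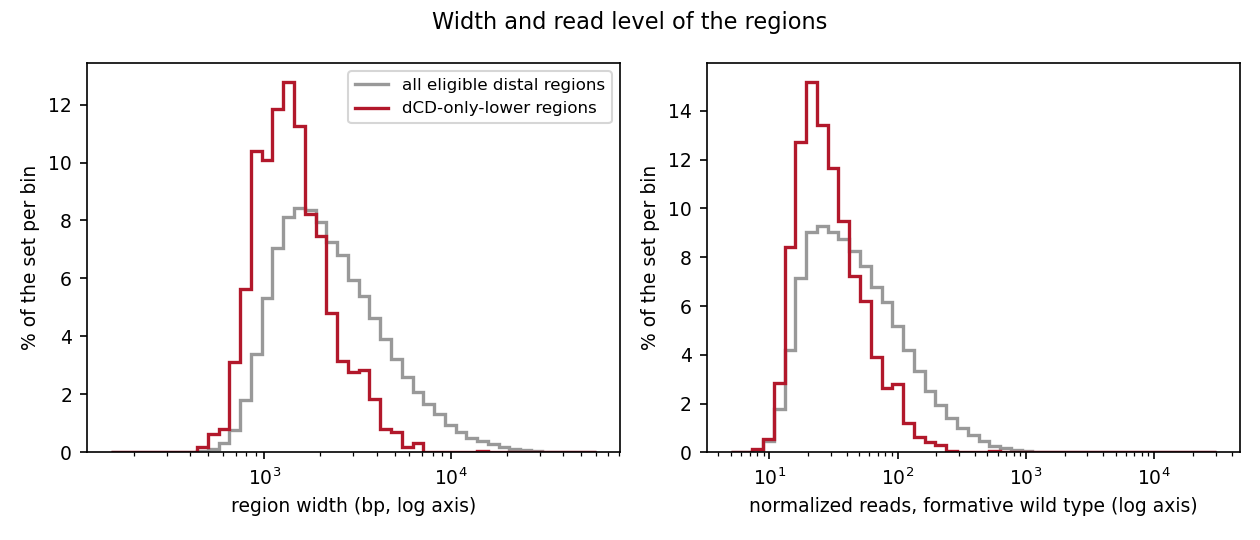
Distribution of region width in bp (left) and of normalized reads in formative WT (right), both on log axes, as the percentage of each set per bin, for the 1579 regions and all 90600 eligible regions. The set is shifted to narrower regions (median 1347 against 2087 bp) and fewer reads (26.9 against 42.2).

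Of the 21 motif strings, searched on both strands of the central 300 bp, most were about as frequent in the set as in eligible regions. CGCG, a string of CpG islands, stood in 3.04% of the set against 6.30% of eligible regions, and the GC box GGGCGGG of KLF and SP factors in 2.15% against 3.74%. The octamer ATTTGCAT, recognised by OCT4, stood in 2.60% against 2.01%, and in 3.47% of the regions lower in both mutants. The shares for SOX (AACAATG, 4.88% against 4.67%) and TEAD (GGAATG, 17.16% against 16.99%) were closer still. GC and CpG content also differed between the sets, and their part in these shares was not tested.

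Measures that the rule did not use also come from the authors' deposited table, as log2 folds of DKO over WT, and the table analysed here has no such fold for dCD. H3K27ac, the acetyl mark of active enhancers, had a median formative fold of −0.21 over the set in the authors' deposited table, against −0.14 over eligible regions and −0.58 in the class lower in both mutants. It was at least 2-fold lower in 29.1% of the set, beside a background of 27.8% over all regions and 25% over eligible regions. In naive cells the median in the authors' deposited table was −0.00, against 0.07 and −0.53. The set was thus near eligible regions in H3K27ac, unlike the class lower in both. At single regions the fold ranged widely in the authors' deposited table, from −7.42 near Casp12 to 6.57 near Zbtb43. These are the extremes among regions of the set above the read minimum, with 27.4 and 30.1 formative H3K4me1 reads in WT. The H3K27ac reads behind these folds were not available here. RNA of the nearest gene, for the 597 genes with a value, had a median formative fold of 0.17 against 0.10 for genes near eligible regions in the authors' deposited table. It was at least 2-fold lower for 5.53% of these genes and higher for 10.9%, beside backgrounds of 5.65% and 6.99% over the nearest genes of all regions and 5.32% and 6.93% over those of eligible regions. The naive RNA fold in the authors' deposited table was at least 2-fold lower for 16.4% and higher for 10.6% of the 597 genes. The naive backgrounds were 11.7% and 9.63% for the nearest genes of all regions, and 11.5% and 9.50% for those of eligible regions.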

How the data were processed

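The authors' deposited H3K4me1 levels are log2 values, 1 pooled column for each of 8 groups of 2 CUT&RUN libraries. Per the submitters' processing notes, Trim Galore, Bowtie2, SEACR, DiffBind and deepTools were used with mm10, and no version or setting is given in the sources at hand. Comparing the deposited levels with the deposited DiffBind concentrations showed the form log2(1 + constant × normalized reads / squared width), from which normalized reads were recovered. The deposited table also gives the p-value and FDR of the authors' comparison of formative with naive WT, and log2 folds of H3K27ac and RNA. The direction of the RNA and H3K27ac folds of DKO against WT follows from their exact agreement with the deposited folds between states. Another 14 columns of levels belong to other samples and were not used. Of 186826 entries, 2 had no level.

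Differences are plain subtractions of deposited log2 levels. With pooled columns no test was possible, and 2-fold shares and medians are set beside all eligible regions. The members, the 13 gene lists and the motif strings were chosen with earlier results of these data known. Regions were named by fixed ranks among members with at least the median 26.9 reads: the 8 lowest in formative dCD, the 6 lowest and 4 highest in naive dCD, and the 4 highest and 4 lowest in naive DKO. Added to these were all list genes of pluripotency, signalling and H3K4 methylation, genes with 4 or more members, the regions next to each threshold, and the 3 lowest and 3 highest H3K27ac folds. That last rank was planned for dCD and used the DKO fold, the one in the table. Python 3.11.15, pandas 2.3.3 and pysam 0.24.0 were used, and the scripts were tested on simulated data. Host genes are from GENCODE for GRCm38, and sequences from the RefSeq copy of that assembly.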

Additional observations from a re-analysis of the deposited data

How the results depend on the processing

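The number of regions followed the limits of the rule and the scaling: 1579 as defined, 576 with each group centred on its median, 583 with quantile scaling, 629 with at least 32 normalized reads, 259 and 3696 with the dCD limit at −1.5 and −0.75, 854 and 2764 with the DKO limit at 0 and −0.5, 622 with DKO set against WT and 948 with stability taken from the authors' FDR. Of the 576 and 583 regions, 367 and 377 were among the 1579. The naive dCD median (−0.55) was −0.41 with centring, −0.52 at 32 reads, −0.74 and −0.47 for the dCD limits, −0.46 and −0.62 for the DKO limits, −0.51 against WT and −0.60 with the FDR. The naive DKO median (−0.22) was −0.40 at the dCD limit of −1.5, −0.067 and −0.34 for the DKO limits, −0.26 against WT and −0.27 with the FDR. The formative floxed median (−0.57) was −0.45 with centring, −0.75 and −0.47 for the dCD limits, −0.71 and −0.45 for the DKO limits, −0.033 against WT and −0.60 with all chromosomes kept. With centring the medians of eligible regions rose above 0, to 0.066, 0.025 and 0.082 for these 3 contrasts, while those of the regions taken stayed below it. Each alternative changes which regions are taken, and no other cause was tested. The low number of reads per region, under 32 in 60.2%, limits every value of a single region. No paired analysis was possible because the levels are 1 pooled column per group, and for the same reason no replicate could be left out.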
